A study of Mus musculus with 2 samples.

Results

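The Dlx, Msx and Prrx genes are 10 homeobox transcription factor genes of neural crest mesenchyme. They were taken by name from the count matrix of 2 mouse rhabdoid tumors (RT) and comprised Dlx1 to Dlx6, Msx1, Msx2, Prrx1 and Prrx2. Ensembl IDs were matched to symbols, and all 10 were found among the 55416 genes of the matrix. Both tumors had formed in heterozygous Dppa3-cre::Smarcb1 mice on a C57BL/6 background. Smarcb1 encodes part of the SWI/SNF complex, which moves nucleosomes. The mice had 1 floxed copy of it and a Cre recombinase knocked into the Dppa3 locus, which is active in primordial germ cells. The tumor called intracranial here was labelled as lying at the trigeminal nerve, and the tumor called extracranial as facial and maxillary. The labels put both in the MYC class. The labels give neither the age nor the sex of the mice. Each location had 1 bulk RNA-seq library and no normal tissue was measured, so no difference below has a replicate check, and location cannot be told apart from differences between 2 single tumors. Intervals are 95% exact counting intervals and cover counting error only.

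Homeobox genes encode proteins that bind DNA through a homeodomain and switch on programs of regional identity. In the embryonic head, neural crest cells migrate into the jaw and face primordia and form mesenchyme, and their Dlx code sets upper against lower jaw identity. Within this code Dlx1 and Dlx2 act broadly, whereas Dlx5 and Dlx6 act in the lower jaw downstream of endothelin signaling and upstream of Hand2. Msx1 and Msx2 are transcriptional repressors that respond to BMP signals and act in tooth, skull and limb growth. Prrx1 and Prrx2 are paired-related factors of craniofacial and limb mesenchyme. Outside the crest, Dlx1, Dlx2, Dlx5 and Dlx6 act in inhibitory neurons of the forebrain, and Dlx3 acts in epidermis, hair, tooth and placenta.

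The homeobox is shown first because it is what the 10 genes share, and because near-identical stretches could make reads ambiguous. It was located in GENCODE release 21 transcripts (GRCm38), read along the transcript, as a stretch of 180 bases around the codons for tryptophan, phenylalanine, glutamine and asparagine of the DNA-recognition helix. Those 12 bases are in capitals, and the stretch is printed for 5 members of the 3 families.
Prrx1 homeobox: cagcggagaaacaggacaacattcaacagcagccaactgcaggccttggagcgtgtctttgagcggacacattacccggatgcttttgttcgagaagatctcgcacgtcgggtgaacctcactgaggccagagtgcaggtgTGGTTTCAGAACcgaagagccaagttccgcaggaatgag
Prrx2 homeobox: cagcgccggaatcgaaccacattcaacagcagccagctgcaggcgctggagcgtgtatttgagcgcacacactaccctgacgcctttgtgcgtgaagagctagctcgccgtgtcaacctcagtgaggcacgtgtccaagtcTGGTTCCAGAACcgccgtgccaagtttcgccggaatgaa
Dlx1 homeobox: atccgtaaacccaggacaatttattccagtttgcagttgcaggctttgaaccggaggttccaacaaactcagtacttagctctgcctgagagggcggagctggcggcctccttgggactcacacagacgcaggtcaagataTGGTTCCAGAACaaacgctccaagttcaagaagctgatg
Dlx2 homeobox: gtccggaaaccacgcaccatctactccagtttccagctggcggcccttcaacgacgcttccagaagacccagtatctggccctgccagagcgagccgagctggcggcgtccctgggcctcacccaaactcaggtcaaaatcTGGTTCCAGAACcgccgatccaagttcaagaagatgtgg
Msx2 homeobox: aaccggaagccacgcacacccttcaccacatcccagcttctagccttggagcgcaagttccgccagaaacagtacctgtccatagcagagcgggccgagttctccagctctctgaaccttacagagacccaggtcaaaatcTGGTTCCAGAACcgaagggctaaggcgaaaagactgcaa

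Over the homeobox, Prrx1 and Prrx2 were identical at 142 of 180 bases and in 58 of 60 encoded residues. Dlx1 and Dlx2 were identical at 133 bases and in 52 residues, whereas Dlx1 and Dlx6 shared 58 residues. Prrx1 and Dlx1 had 93 bases in common. In spite of this likeness, none of the windows of 72 bases, the read length, in the transcripts of any member was found in a transcript of another member. Windows shared with genes outside the family made up 4.74% for Dlx1, all of them in its antisense gene Dlx1as, 2.53% for Dlx6 and 0.281% for Dlx4. The other 7 members had 0 shared windows in GENCODE transcripts.

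Antisense transcripts overlap 3 Dlx genes, and whether the counting used the strand is not given in the sources used here. Exons of other genes covered 6.21% of the exon bases of Dlx1, 4.38% of those of Dlx6 and 2.42% of those of Dlx4. Dlx1as had 31 counts in the intracranial and 26 in the extracranial library, against 549 and 318 for Dlx1. Dlx4os had 20 and 1 counts, which for the intracranial library is more than the 9 counts of Dlx4 itself. Dlx6os1, whose exons share no base with those of Dlx6, had 7 and 3 counts, and Dlx6os2 had 0 in both. The counts of Dlx1, Dlx4 and Dlx6 are therefore uncertain beyond their counting intervals. For Dlx6 this rests on the shared exon bases and the shared windows, as Dlx6os2 had no counts. Those windows lay in Dlx6os2 and in genes that do not overlap Dlx6, among them Klhl32, Nkx2-1 and Ntrk3. The 3 genes within the span of Prrx1 share no exon base with it, and Gm37644 (25 and 12 counts) and Gm20471 (1 and 1) were low beside it. The remaining one, Gm26523, was not counted.

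Total counts were 34545846 in the intracranial and 26915696 in the extracranial library, and 3 counts, taken as the floor of detection, corresponded to 0.0863 and 0.112 CPM, a count scaled to a common library size. Smarcb1, the targeted gene, had 365 and 530 counts, or 10.5 CPM (9.45 to 11.6) and 19.8 CPM (18.2 to 21.6), and counts per gene do not separate the deleted from an intact allele. Markers of several cell types differed widely between the libraries. A list of 10 keratinocyte genes summed to 4004 CPM in the intracranial and 5.16 CPM in the extracranial library, with 8 genes beyond 4-fold (Krt14, Krt5, Krt1, Krt15, Trp63, Dsg3, Perp and Sfn). Macrophage genes, led by C1qa, summed to 3101 and 8792 CPM, with Aif1 higher and Cd163 lower in the extracranial library beyond 4-fold. Endothelial genes, led by Cldn5, summed to 227.7 and 418.5 CPM. Skeletal muscle genes, led by Acta1, summed to 59.5 and 12.3 CPM, with Myh1, Myh2, Myh4, Tnni2 and Tnnt3 lower beyond 4-fold. Fibroblast and mesenchyme genes, led by Vim, summed to 8027 and 8961 CPM, of which Vim alone was 4516 and 3788. Among these 10 genes, Dcn and Lum were higher in the extracranial library beyond 4-fold. For the nerve named in the intracranial label, Schwann cell genes, led by Pmp22, summed to 247.2 and 253.3 CPM. Their defining factor Sox10 had 43 and 0 counts and Cdh19 66 and 4, whereas Egr2 was higher in the extracranial library. Neuron genes summed to 89.6 and 140.4 CPM, with Tubb3 highest in the intracranial and Nefl in the extracranial library, and Elavl3 had 21 and 0 counts. In bulk RNA, fewer cells of a type and less RNA per cell cannot be told apart.

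All 10 members were above the floor in the intracranial library and 8 of 10 in the extracranial library, where Dlx4 and Dlx6 had 2 and 1 counts. The family was carried by Prrx1. Levels of different genes were compared as CPM per kilobase of exon, and on this scale Prrx1 made up 77.1% of the summed level of the 10 genes in the intracranial and 76.1% in the extracranial library. The 6 Dlx genes made up 18.4% and 17.4%, and the 2 Msx genes 1.37% and 3.57%. Ranked among 24321 genes that exceeded the floor somewhere and had a length, Prrx1 lay at percentile 92.7 of the per-length level in the intracranial library and 90.7 in the extracranial library. Dlx2 followed at percentiles 62.1 and 62.2 and Dlx1 at 55.9 and 53.1. Dlx4, the lowest in the intracranial library, lay at percentile 9.78, and Dlx6, the lowest in the extracranial library, at 6.76.

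**Figure D1:**
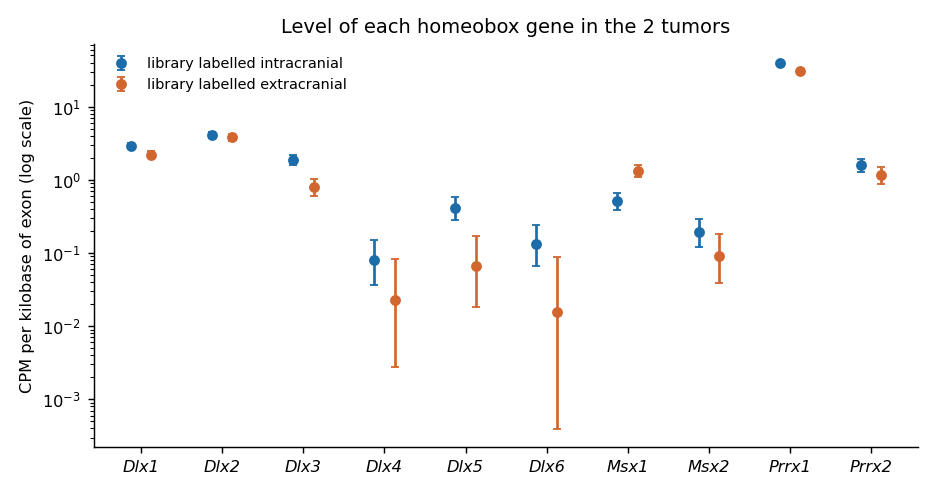
Level of each gene in CPM per kilobase of exon (log axis) in the library labelled intracranial (blue) and the library labelled extracranial (orange), 1 library each; bars are 95% counting intervals. Prrx1 stands highest at 39.7 and 30.2, Dlx2 and Dlx1 follow, and Dlx4, Dlx5, Dlx6 and Msx2 are low in both.

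Prrx1 (ENSMUSG00000026586, chromosome 1) had 15251 counts in the intracranial and 8955 in the extracranial library. These are 438.9 CPM (432 to 445.9) and 334.6 CPM (327.7 to 341.6), so the gene was high in both and lower in the extracranial one. Its log2 ratio, here and below of the extracranial over the intracranial level, was -0.39 (-0.43 to -0.35), a 1.31-fold lower level. Prrx2 (ENSMUSG00000039476, chromosome 2), its paralog, had 107 and 61 counts, or 3.08 CPM (2.52 to 3.72) and 2.28 CPM (1.74 to 2.93). Its ratio of -0.43 (-0.91 to 0.03) was close to that of Prrx1, but its interval reached past equal levels. Both libraries thus held Prrx1 far above Prrx2. Per kilobase, the ratio of Prrx1 to Prrx2 was 25.3 (20.9 to 30.8) in the intracranial and 26.0 (20.2 to 34.0) in the extracranial library, with overlapping intervals.

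The neighboring genes Dlx1 and Dlx2, which lie on chromosome 2 in convergent orientation with 0 protein-coding genes between them, were the next highest members. Dlx1 (ENSMUSG00000041911) had 549 and 318 counts, or 15.8 CPM (14.5 to 17.2) in the intracranial and 11.9 CPM (10.6 to 13.3) in the extracranial library. Its log2 ratio was -0.41 (-0.61 to -0.21), lower in the extracranial library beyond counting error. Dlx2 (ENSMUSG00000023391) had 402 and 291 counts, or 11.6 CPM (10.5 to 12.8) and 10.9 CPM (9.66 to 12.2), and its ratio of -0.09 (-0.31 to 0.13) was within counting error. Per length, Dlx2 stood above Dlx1 in both libraries, whereas with no length correction Dlx1 stood above Dlx2. Without that correction their intervals overlapped in the extracranial library. The ratio of Dlx1 to Dlx2 per kilobase was 0.723 (0.634 to 0.824) and 0.578 (0.492 to 0.680), and these intervals overlap. Inhibitory neurons also use this pair, and 2 of 11 of their genes were above the floor in the intracranial and 5 in the extracranial library. Gad1, which makes the transmitter GABA, had 8 and 5 counts, the vesicular GABA transporter gene Slc32a1 had 1 and 0, and Nkx2-1 and Sst had 0 in both libraries. In that list of 11 genes only Npy, with 297 and 144 counts, and Gad2, with 3 and 25, exceeded 9 counts in a library. Npy, at 15.1 and 9.51 CPM per kilobase, stood above both Dlx genes, and the part of such cells in the levels of the pair was not tested. In this list the median log2 ratio of the 5 genes above the floor in either was 0.79.

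Dlx3 and Dlx4 form the pair on chromosome 11 and differed strongly in level. Dlx3 (ENSMUSG00000001510) had 170 counts, or 4.89 CPM (4.19 to 5.69), in the intracranial library and 55 counts, or 2.06 CPM (1.55 to 2.67), in the extracranial library. The log2 ratio of -1.25 (-1.72 to -0.80) was beyond counting error, with a 2.38-fold lower level in the extracranial library. Keratinocyte genes, whose tissue also uses Dlx3, were lower in the same direction, with 10 of 10 beyond counting error and 8 of 10 beyond 4-fold. Their part in the intracranial level of Dlx3 was not tested. In the extracranial library, where Dlx3 had 55 counts, Krt10 had 67, Sfn 66, Perp 3 and Krt14 2, and Krt5, Krt1, Krt15, Trp63, Dsg3 and Ivl were at 0. Dlx4 (ENSMUSG00000020871) had 9 and 2 counts, or 0.259 CPM (0.118 to 0.492) and 0.0747 CPM (0.00905 to 0.27), and its ratio of -1.79 (-5.04 to 0.48) did not separate the libraries. Dlx3 exceeded Dlx4 per kilobase by 23.7-fold (12.2 to 52.7) in the intracranial and 34.5-fold (9.10 to 291.9) in the extracranial library.

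Dlx5 and Dlx6, the pair on chromosome 6, had few counts, and in the extracranial library both were at or near the floor of 3. Dlx5 (ENSMUSG00000029755) had 32 counts, or 0.921 CPM (0.630 to 1.30), in the intracranial library and 4 counts, or 0.1495 CPM (0.0407 to 0.383), in the extracranial library. With a log2 ratio of -2.62 (-4.58 to -1.13), it was the member farthest from equal levels whose counts were both above the floor, and the level was 6.16-fold lower in the extracranial library. Dlx6 (ENSMUSG00000029754) had 11 and 1 counts, or 0.317 CPM (0.158 to 0.566) and 0.0374 CPM (0.000946 to 0.208). Its ratio from these counts was -3.08 (-8.51 to -0.30), and -1.50 with the single extracranial count set to the floor. Both members of this pair were therefore lower in the extracranial library beyond counting error, on 4 and 1 counts there.

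Msx1 (ENSMUSG00000048450, chromosome 5) was the exception in direction. It had 55 counts in the intracranial and 110 in the extracranial library, which is 1.58 CPM (1.19 to 2.06) and 4.11 CPM (3.38 to 4.95). These intervals do not overlap, and the log2 ratio was 1.38 (0.90 to 1.87), a 2.60-fold higher level in the extracranial library. Msx2 (ENSMUSG00000021469, chromosome 13) had 22 and 8 counts, or 0.633 CPM (0.397 to 0.959) and 0.299 CPM (0.129 to 0.589). Its ratio of -1.08 (-2.46 to 0.14) pointed the other way without leaving counting error. The balance between the paralogs differed between the libraries. Msx1 stood 2.65-fold (1.59 to 4.56) above Msx2 per kilobase in the intracranial and 14.6-fold (7.14 to 34.6) in the extracranial library, and these intervals do not overlap. Among the 5 paralog pairs, this was the one whose intervals in the libraries did not overlap. Overlap of separate intervals does not show an equal balance, and no interval was computed for the change in balance itself. Whether the balance of the other pairs, such as Dlx1 to Dlx2, differed beyond counting error was therefore not tested.

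**Figure D2:**
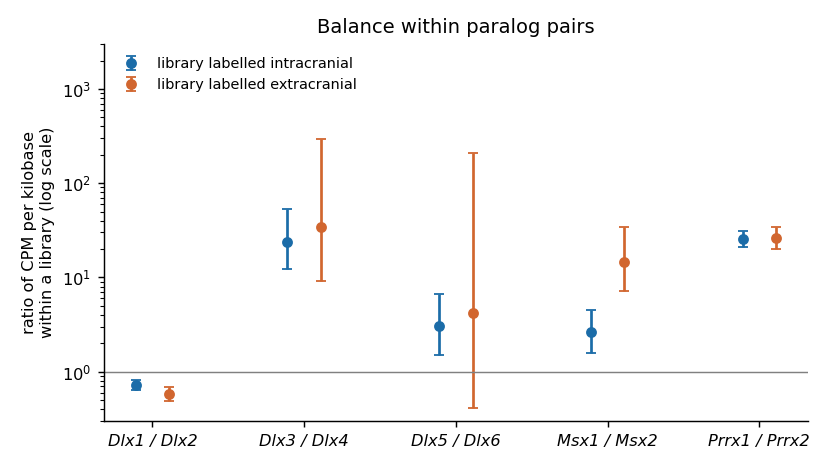
Ratio of the first to the second gene of each pair in CPM per kilobase of exon (log axis), in the intracranial (blue) and extracranial (orange) library, 1 library each, with 95% counting intervals; the line marks equal levels. Prrx1 to Prrx2 is at 25.3 and 26.0, whereas Msx1 to Msx2 is at 2.65 and 14.6 with intervals that do not overlap.

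The promoters of the Prrx and Msx pairs are shown because the intervals of the balance overlapped between the libraries for Prrx and did not for Msx. Each is the 250 bases before the transcription start in the RefSeq table, which held 6 of the 10 members, and Dlx3, Dlx4, Dlx5 and Dlx6 had no entry. For Msx1, unlike the other 5, the 50 bases after this start were not found in a GENCODE transcript of the gene. Capitals mark matches on either strand to TAATTA, a core that many homeodomains bind, to CCAAT, the CCAAT box, and to TATAAA, the TATA box. The 3 motifs do not overlap each other in these windows.
Prrx1 promoter, GRCm38.p6 chr1:163313651-163313900, minus strand: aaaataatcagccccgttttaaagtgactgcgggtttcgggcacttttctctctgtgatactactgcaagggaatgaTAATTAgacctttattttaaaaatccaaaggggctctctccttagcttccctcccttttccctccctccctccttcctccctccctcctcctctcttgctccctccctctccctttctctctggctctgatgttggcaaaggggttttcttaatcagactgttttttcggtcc
Prrx2 promoter, GRCm38.p6 chr2:30845117-30845366, plus strand: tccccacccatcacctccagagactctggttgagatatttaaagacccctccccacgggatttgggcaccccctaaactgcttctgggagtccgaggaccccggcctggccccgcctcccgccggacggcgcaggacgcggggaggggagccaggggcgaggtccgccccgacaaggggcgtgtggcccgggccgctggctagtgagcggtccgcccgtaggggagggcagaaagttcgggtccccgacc
Msx1 promoter, GRCm38.p6 chr5:37824586-37824835, minus strand: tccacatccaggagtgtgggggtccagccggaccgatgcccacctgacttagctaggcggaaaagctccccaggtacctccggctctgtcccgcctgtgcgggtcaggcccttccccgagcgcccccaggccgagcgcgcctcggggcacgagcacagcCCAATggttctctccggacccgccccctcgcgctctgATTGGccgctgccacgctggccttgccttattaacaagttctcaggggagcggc
Msx2 promoter, GRCm38.p6 chr13:53472781-53473030, minus strand: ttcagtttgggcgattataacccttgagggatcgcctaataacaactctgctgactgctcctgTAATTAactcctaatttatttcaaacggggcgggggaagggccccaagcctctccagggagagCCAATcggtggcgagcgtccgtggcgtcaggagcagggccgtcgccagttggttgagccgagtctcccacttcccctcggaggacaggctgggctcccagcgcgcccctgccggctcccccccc

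The promoters differed in base composition within the Prrx pair. Prrx1 had 4 CG dinucleotides in the 250 bases and Prrx2 had 21, against a median of 6 over 32851 promoters of that length. Msx1 had 20 and Msx2 had 16. TAATTA was found once in the Prrx1 and once in the Msx2 window, and 4.84% of all promoters hold it. CCAAT was found in both Msx promoters, with 2 matches in Msx1 and 1 in Msx2, and 33.9% of all promoters hold it. TATAAA, present in 12.4% of promoters, was in none of the 6 windows. These matches describe letters in the windows and were not tied to the counts.

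Taking the members as a group, 9 of 10 had a lower level in the extracranial library and 1 a higher one by their counts. Of these, Dlx2, Dlx4, Msx2 and Prrx2 had intervals that included equal levels. The share of all genes that were lower by their counts alone was not computed. The whole interval lay below equal levels for 5 members (Dlx1, Dlx3, Dlx5, Dlx6 and Prrx1) and above for 1 (Msx1). Over the 21977 genes with 10 or more counts in the 2 libraries together, 61.4% had an interval on 1 side of equal levels and 32.2% had one below. The 6 of 10 members with an interval on either side are thus near the share of all genes, and 5 of 10 lay below. None of the 10 members had its whole interval beyond 4-fold, against 7.19% of all genes, of which 1190 were lower and 391 higher in the extracranial library. Dlx5 alone had its interval beyond 2-fold, against 15.6% of all genes. The median log2 ratio of the members was -0.76, and that of all genes tested was -0.04.

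**Figure D3:**
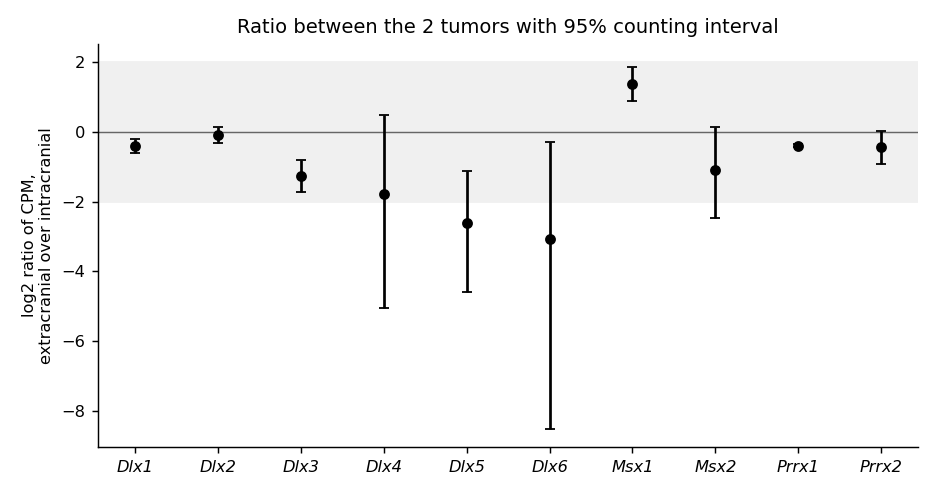
log2 ratio of CPM, extracranial over intracranial, for each gene from its counts, with its 95% counting interval; the grey band marks ratios within 4-fold. Msx1 alone lies above 0 (1.38), Prrx1 has the narrowest interval (-0.43 to -0.35), and Dlx4, Dlx5 and Dlx6 have wide ones.

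**Figure D4:**
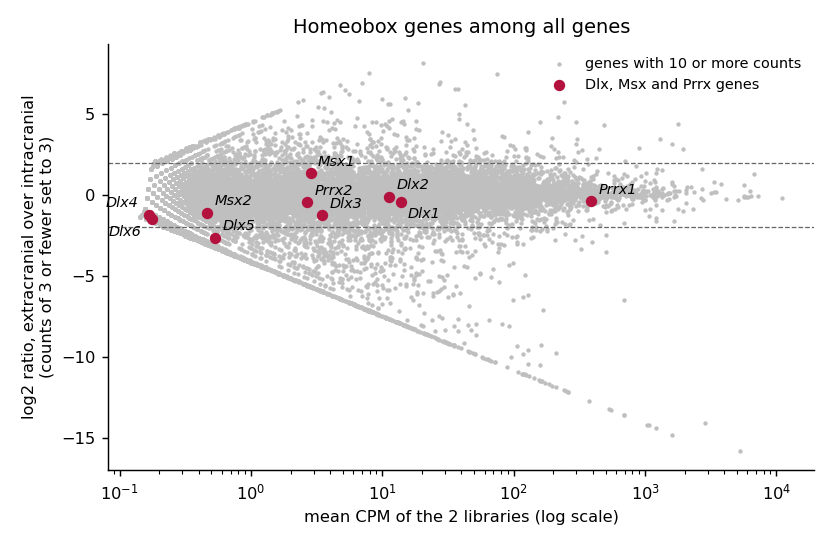
log2 ratio, extracranial over intracranial, against the mean CPM of the 2 libraries (log axis) for genes with 10 or more counts (grey) and the 10 members (red), counts of 3 or fewer set to 3; dashed lines mark 4-fold. The members lie inside the grey cloud, Dlx5 at -2.62 alone outside the lines and Prrx1 far to the right.

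The order of the members by per-length level was alike in the libraries at the top. With no length correction Dlx1 stood above Dlx2, with overlapping intervals in the extracranial library. On the per-length scale Prrx1, Dlx2 and Dlx1 took the top 3 places in that order in both libraries. In each step on that scale, and in that from Dlx1 to the next gene, the counting intervals did not overlap. Below them the intracranial order was Dlx3, Prrx2, Msx1, Dlx5, Msx2, Dlx6 and Dlx4, in which Prrx2 exceeded Msx1 by 3.07-fold and all the other neighbors had overlapping intervals. In the extracranial library Msx1, Prrx2 and Dlx3 followed with overlapping intervals between neighbors. Dlx3 then exceeded Msx2 by 8.65-fold, and Msx2, Dlx5, Dlx4 and Dlx6 overlapped as neighbors. Msx1 moved from rank 6 to rank 4 and Dlx3 from rank 4 to rank 6.

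A list of other homeobox genes, drawn up for face and limb mesenchyme, was compared with the members. Its genes are not limited to that tissue. Of the 18 genes, 16 were above the floor in the intracranial and 11 in the extracranial library. Their median log2 ratio was -0.81 beside -0.76 for the members and -0.04 for all genes. Among the 15 with 10 or more counts, 5 had an interval beyond 4-fold and all 5 were lower in the extracranial library, the direction that 1190 of the 1581 such genes overall also had. Among them were Barx2 (756 and 1 counts), Msx3 (57 and 0), Six2 (138 and 10) and Meox2 (2346 and 348). Keratinocyte genes were lower in the same direction, and the part of cells other than mesenchyme in these counts was not tested. Meox1, a factor of somite mesenchyme, was the highest in both libraries at 223 and 369.2 CPM, a log2 ratio of 0.73 (0.68 to 0.77). Genes of jaw mesenchyme were well above the floor, with Lhx8 at 70.6 and 84.8 CPM and Barx1 at 33.9 and 44.0 CPM. Gsc, a target in the Dlx5 and Dlx6 territory, had 16 and 50 counts and a ratio of 2.02 (1.18 to 2.93).

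The list of other transcription factors of the neural crest and its mesenchyme showed a similar center. Of 20 genes, 17 and 14 were above the floor, and the median log2 ratio was -0.85. Of 17 genes with 10 or more counts, 3 were lower in the extracranial library beyond 4-fold and 0 were higher, again beside 1190 and 391 over all genes. With the looser criterion of counting error 11 were lower and 3 higher. By that criterion 61.4% of all genes lay on 1 side of equal levels and 32.2% were lower. In the mesenchyme homeobox list 9 of 15 genes were lower by it and 5 higher. Twist1, a mesenchyme factor of the crest, was the highest at 138.4 and 84.5 CPM (-0.71, -0.78 to -0.64). Hand2, which acts downstream of Dlx5 and Dlx6 in the lower jaw, had 1815 and 86 counts, a ratio of -4.02 (-4.35 to -3.71). Tfap2b had 219 and 3 counts and Sox10 43 and 0. Hand1 had 0 counts in both, for which the exact upper limits were 0.106 and 0.138 CPM, and the early crest factors Pax3 and Pax7 had 2 or fewer.

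In the endothelin pathway, which acts upstream of Dlx5 and Dlx6, the ligand and the receptor differed in direction. Edn1, the ligand, had 125 and 23 counts and a ratio of -2.07 (-2.77 to -1.42). Ednra, the receptor of the crest, had 70 and 122 counts and a ratio of 1.18 (0.74 to 1.62). The signal transducer Gnaq was at 116.2 and 116.7 CPM. Mef2c, a nuclear effector of the pathway that macrophages also express, had 762 and 2783 counts and was the only one of 9 genes with an interval beyond 4-fold (2.25, 2.13 to 2.36). Macrophage genes were higher in the same library, 9 of 10 beyond counting error, and their part in the level of Mef2c was not tested. The list's median ratio was 0.01.

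In the BMP pathway, which acts upstream of Msx1 and Msx2, several ligands and inhibitors differed in opposite directions. Bmp4 had 625 and 1029 counts (1.10, 0.95 to 1.24) and Bmp2 73 and 154 (1.45, 1.04 to 1.88), both higher in the extracranial library like Msx1. Bmp7, another ligand, had 195 and 3 counts. The secreted inhibitor Nog had 29 and 0 counts, Grem1 had 233 and 54, and Chrd had 468 and 180. Of the target genes, Id1 had 1677 and 282 counts (-2.20, -2.38 to -2.01), whereas Id3, the highest gene of the list, was at 228.8 and 215.7 CPM. Of 19 genes with 10 or more counts, 3 (Bmp7, Id1 and Nog) were lower beyond 4-fold in the extracranial library and 0 were higher, and the median of all 20 was -0.03.

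Bone and tooth genes, which some members help to switch on, were mixed. Runx2, the early bone factor, had 383 and 380 counts (0.37, 0.16 to 0.57), and Sp7, the later one, 17 and 31 (1.24, 0.35 to 2.19). Dmp1, a matrix protein of mineralizing cells, had 29 and 3988 counts (7.48, 6.96 to 8.06), whereas Ibsp had 186 and 15 and Bglap 60 and 4. The tooth matrix genes Dspp and Ambn had 0 counts in both libraries and Amelx had 1 and 0. The highest genes were Col1a1, at 1113 and 887.2 CPM, and Spp1, at 272.3 and 488 CPM, which led per length in the intracranial and the extracranial library, respectively. Over the 8 genes with a ratio the median was 0.60, and it was 0.00 with a prior count of 2. Cartilage genes had a median of -0.10, and their one gene beyond 4-fold was Comp with 6474 and 270 counts.

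**Figure D5:**
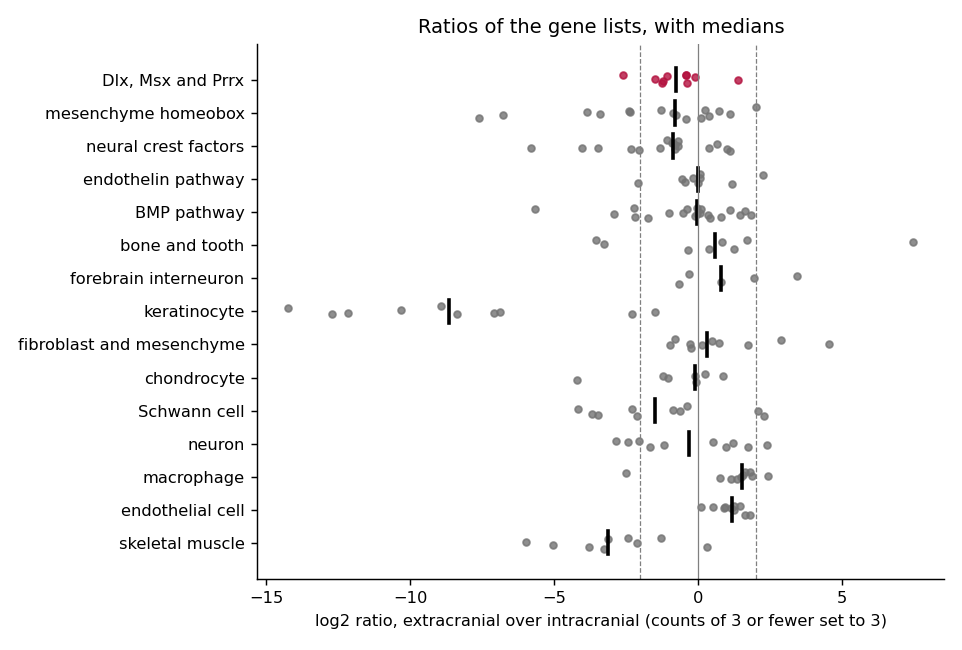
log2 ratio, extracranial over intracranial, of each gene with more than 3 counts in a library (points) and the median (black bar) for the members (red) and each gene list; counts of 3 or fewer were set to 3 and dashed lines mark 4-fold. The members center at -0.76, near the mesenchyme homeobox list at -0.81 and the neural crest factors at -0.85, while keratinocyte genes center at -8.64 and macrophage genes at 1.53.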

How the data were processed

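Bulk RNA-seq of 2 tumors was analysed, with 1 library per labelled localization. The deposited values were raw read counts per Ensembl gene. To make them, the authors selected poly(A) RNA, built directional libraries, aligned single reads with STAR 2.7.9a (Ensembl release 104, GRCm39) and counted with featureCounts. FastQC 0.11.9 and MultiQC 1.11 are listed in the submitters' processing notes.

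Symbols (52083 IDs, 93.99%), exon lengths and overlaps came from GENCODE release 21 on GRCm38, which is older than the authors' annotation, and promoters came from RefSeq (GRCm38.p6). Libraries were scaled with TMM (edgeR 4.0.16, R 4.3.3; factors 1.006 and 0.994). Levels were given Clopper-Pearson 95% intervals, and ratios the conditional exact binomial interval. Genes with 10 or more counts over both libraries counted as called if their whole interval was outside 4-fold. For medians and plotted ratios, counts of 3 or fewer were set to 3, and genes at or under 3 in both were left out. With 1 library per group, neither the quasi-likelihood test of edgeR nor DESeq2 could be fitted, and no p-value is given. The ratio procedure was tested on simulated data. Reads carry no molecular identifiers, so intervals cover counting error only.

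The members and the 14 lists were chosen with earlier results of these data known. Twist2 and Sox10 are each in 2 lists. All members are named, and of each list the highest gene, genes called beyond 4-fold and direct partners of the members. A few genes that this rule names and 1 sequence are not reported here. Other genes named were chosen after their values were seen. Alternatives comprised scaling by DESeq2 1.42.0 size factors, by upper quartile or by total counts, other count minimums (any count, 100 counts) and call limits, a prior count of 2, and other length corrections.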

Additional observations from a re-analysis of the deposited data

How the results depend on the processing

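No paired analysis was possible because only 1 library stood for each tumor site, and for the same reason no library could be left out. The other scalings (DESeq2 size factors, total counts, upper quartile) kept the direction of all 10 member ratios and left the count of members beyond 4-fold at 0. With upper quartile scaling the Prrx1 ratio of -0.39 became -0.35, which before rounding lay just outside its counting interval. No other member ratio left its interval under these scalings. An interval beyond 2-fold gave 1 member and 3434 of all genes, against 1581 beyond 4-fold, and a ratio beyond 4-fold with no interval gave 1 member and 2542 genes, by construction of the looser limits. With the longest transcript as length, Prrx1 made up 82.25% of the family in the intracranial and 80.96% in the extracranial library, and with no length correction 91.83% and 91.33%. With no length correction 2 members, Dlx1 and Dlx2, exchanged places in both libraries, though their intervals then overlapped in the extracranial one. With the longest transcript 2 members, Dlx3 and Prrx2, exchanged places in the intracranial library. The medians of the endothelin (0.01) and BMP (-0.03) lists turned to -0.01 with total counts and to 0.01 with upper quartile scaling, respectively, so neither has a direction. A prior count of 2 moved the medians of the bone and tooth (0.60 to 0.00), forebrain interneuron (0.79 to 0.50), keratinocyte (-8.64 to -9.43) and skeletal muscle (-3.13 to -2.71) lists and kept the direction of every member. The lowest members are limited by depth, with Dlx4, Dlx5 and Dlx6 at 4 or fewer counts in the extracranial library.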
